A study of Mus musculus with 10 samples.

Results

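The genes described here are 10 cation channels of the transient receptor potential (TRP) superfamily out of 55453 genes in the count table: *Trpm2*, *Trpm4*, *Trpm7*, *Trpv2*, *Trpv4*, *Trpc1*, *Trpc6*, *Trpm3*, *Trpm8* and *Mcoln2*. They were selected on measured values, because *Trpm2* was higher in every library from glatiramer acetate (GA)-treated mice than in any control library, and the other channels were put beside it. RNA was sequenced from microglia, the resident macrophages of the brain, sorted as CD45int CD11b+ cells from hippocampi of 3xTg AD females over 15 months of age. The transgenes that all mice carried include human APP with the Swedish mutation and MAPT P301L. Both are driven by the Thy1.2 promoter, which is active in neurons. The mice were retired breeders. The PBS group (n = 5 libraries) received phosphate-buffered saline and the GA group (n = 5 libraries) received GA, a random copolymer of amino acids used to treat multiple sclerosis, at 0.1 mg per injection over about 8 weeks; the labels give weekly injections, and the study's methods add a further injection in the first week. All 10 libraries were from 3xTg AD mice, so all values are from mice with the disease transgenes. The titles of the PBS libraries begin with 388, those of GA replicates 1 and 2 with 394 and those of GA replicates 3 to 5 with 400. What these prefixes mean was not stated, no prefix held both treatments, and prefix and treatment cannot be told apart.

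TRP channels are tetrameric channels of the plasma membrane or of intracellular organelles that pass calcium, sodium and other cations in response to chemical, thermal, mechanical or lipid signals. TRPM2 is opened by cytosolic ADP-ribose together with calcium, is engaged during oxidative stress, and is well known in myeloid cells, including microglia. Calcium entry through such channels, through store-operated ORAI channels and through purinergic receptors shapes migration, phagocytosis and cytokine release in these cells.

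The libraries held 32332185 to 38764643 counted reads, with a median of 32755942 in PBS and 35275011 in GA, so that 3 reads corresponded to 0.0771 to 0.0929 CPM (read counts of a gene scaled by the size of its library). The 10 microglial markers examined, among them *P2ry12*, *Tmem119* and *Csf1r*, summed to 56100 to 66300 CPM in PBS and 57200 to 62000 CPM in GA. The 8 neuronal markers summed to 1.5 to 4.55 CPM over all libraries. Astrocyte markers summed to 247 to 355 CPM, oligodendrocyte markers to 175 to 218 CPM and endothelial and mural markers to 36.7 to 54.4 CPM. In the astrocyte list *Slc1a3* alone averaged 281 CPM, and in the oligodendrocyte list *Cnp* averaged 102 CPM. *Itgam*, which encodes the CD11b used for the sort, was at 88.6 CPM in PBS replicate 4 and at 191 to 299 CPM in the other libraries. The labels do not state that the libraries came from separate animals, so p-values measure the spread between these libraries.

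*Trpm2* (ENSMUSG00000009292.18) lies on the minus strand of mouse chromosome 10 at chr10:77907722-77970563 (GRCm38, GENCODE M21), with 12.46 kb of merged exons. Because its transcript level is the quantity that separated the groups, the 250 bases before its RefSeq start (GRCm38.p6, chr10:77969873-77970122, minus strand) are shown 5′ to 3′, with the only match to the searched motifs in capitals. In GENCODE M21 the gene begins farther upstream, so this window lies inside the annotated gene, between exons, and its upstream end is 441 bases downstream of the annotated 5′ end.

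Trpm2: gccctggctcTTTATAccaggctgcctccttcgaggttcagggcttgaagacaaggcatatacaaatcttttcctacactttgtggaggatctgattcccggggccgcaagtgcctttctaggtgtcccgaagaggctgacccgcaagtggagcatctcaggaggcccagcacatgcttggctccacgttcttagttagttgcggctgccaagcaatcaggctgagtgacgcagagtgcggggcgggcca

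The capitals are the letters TATAAA (the TATA box) read on the opposite strand, starting 240 bases before the start, and these letters occur on either strand of 12.4% of the 32851 promoter windows of this length. The letters GAGGAAGT, a binding site of the myeloid factor PU.1, are not in this window and occur in 2.44% of all windows. GC content of the *Trpm2* window was 56.8%, against a median of 52.4% over all windows, and it held 10 CpG against a median of 6. Among the 23 of 28 TRP genes found in the RefSeq table, GAGGAAGT was in the windows of *Trpv2* and *Mcoln3* and TATAAA in those of *Trpc4*, *Trpm2*, *Trpm8* and *Trpv5*. A match of letters is a description of the sequence and does not show a bound or working site.

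*Trpm2* was measured at 89.9, 84.7, 75.7, 66.5 and 75.0 CPM in PBS replicates 1 to 5. In GA replicates 1 to 5 it was at 93.4, 110.6, 96.7, 108.7 and 101.2 CPM. Every GA library was above every PBS library, with PBS replicate 1 and GA replicate 1 next to each other across the gap and PBS replicate 4 at the bottom. These values rested on 2147 to 3439 reads in PBS and 3120 to 4150 reads in GA. The mean was 78.4 ± 9.13 CPM in PBS and 102 ± 7.44 CPM in GA (SD, n = 5 each), a log2 fold change of 0.38 with a standard error of 0.09. Without PBS replicate 4, which was lowest in both *Trpm2* and *Itgam*, the log2 fold change was 0.329. As this difference chose the genes, it is given as a description without a test. Of 14481 genes tested, 63 were likewise higher in every GA library than in every PBS library (0.435%), and 129 did not overlap between the groups in either direction (0.891%). In bulk RNA, a change in the number of cells that carry a transcript and a change in the amount per cell cannot be told apart.

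**Figure D1:**
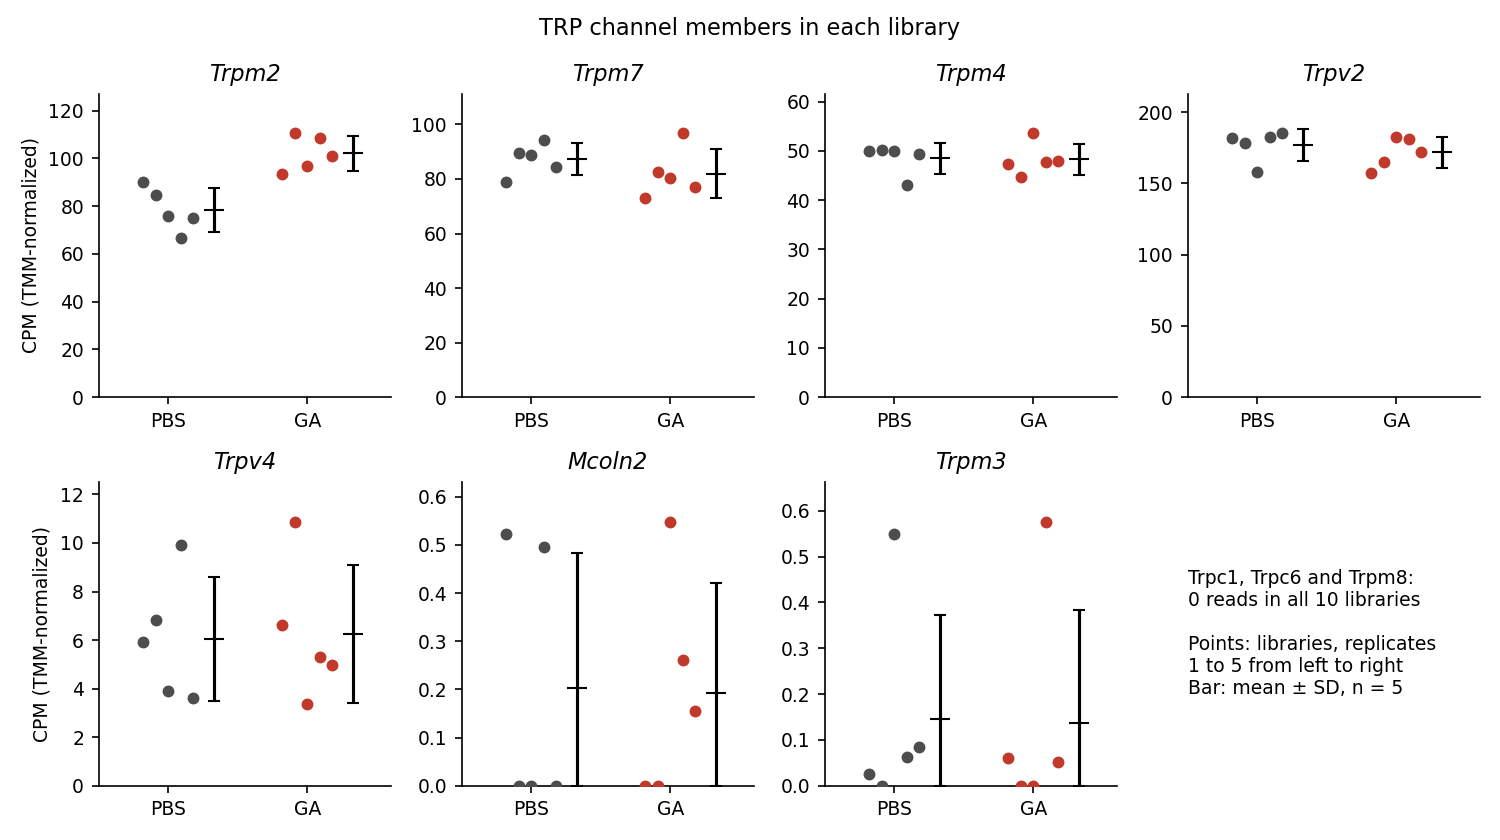
CPM of the 7 members with reads in each library, with PBS in grey and GA in red, replicates 1 to 5 from left to right, and the mean ± SD (n = 5) beside them on axes that start at 0. The GA libraries of *Trpm2* (93.4 to 110.6 CPM) sit above its PBS libraries (66.5 to 89.9 CPM), whereas the groups of the other 6 genes overlap.

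*Trpm2* was also compared within each library with other channels, a measure that does not depend on library size. The ratio of *Trpm2* to *Trpm4* reads was 1.80, 1.69, 1.52, 1.55 and 1.52 in PBS replicates 1 to 5 and 1.98, 2.47, 1.80, 2.28 and 2.11 in GA replicates 1 to 5. The ratio to *Trpv2* reads was 0.444 ± 0.0565 in PBS and 0.596 ± 0.0502 in GA. All 5 GA libraries were above all PBS libraries in both ratios, although GA replicate 3 and PBS replicate 1 both round to 1.80 against *Trpm4*. Against *Trpm7* reads the ratio was 0.906 ± 0.159 in PBS and 1.25 ± 0.0880 in GA, and the groups overlapped because GA replicate 4 (1.12) fell below PBS replicate 1 (1.14). These ratios use the contrast that chose the genes and carry no test.

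Among the GA libraries, *Trpm2* averaged 102 CPM in both title prefixes, and the log2 difference of prefix 400 from prefix 394 was 0.0024 with a standard error of 0.13. The selection required all 5 of these libraries to be high, so this is a description without a test. Within a treatment group, the standard deviation of log2 CPM of *Trpm2* was 0.14, and 56.5% of 3414 genes of similar abundance varied less.

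*Trpm2* is among the genes that neutrophils also express, and markers of these cells differed in mean between the treatments. The 10 neutrophil markers summed to 160, 38.0, 448, 287 and 370 CPM in PBS replicates 1 to 5 and to 42.3, 170, 11.0, 18.6 and 106 CPM in GA replicates 1 to 5. All 8 tested markers of this list had a lower fitted mean in GA, and 7 had an unadjusted p under 0.05 against 5.75% of all genes, while none passed adjustment. The sums overlapped between the groups, with GA replicate 2 (170 CPM) above PBS replicates 1 and 2. Monocyte markers summed to 38.0 to 95.0 CPM in PBS and 38.5 to 55.1 CPM in GA, and those of border-associated macrophages to 53.1 to 275 and 52.3 to 208 CPM. The part of these cells in the *Trpm2* values was not tested.

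**Figure D2:**
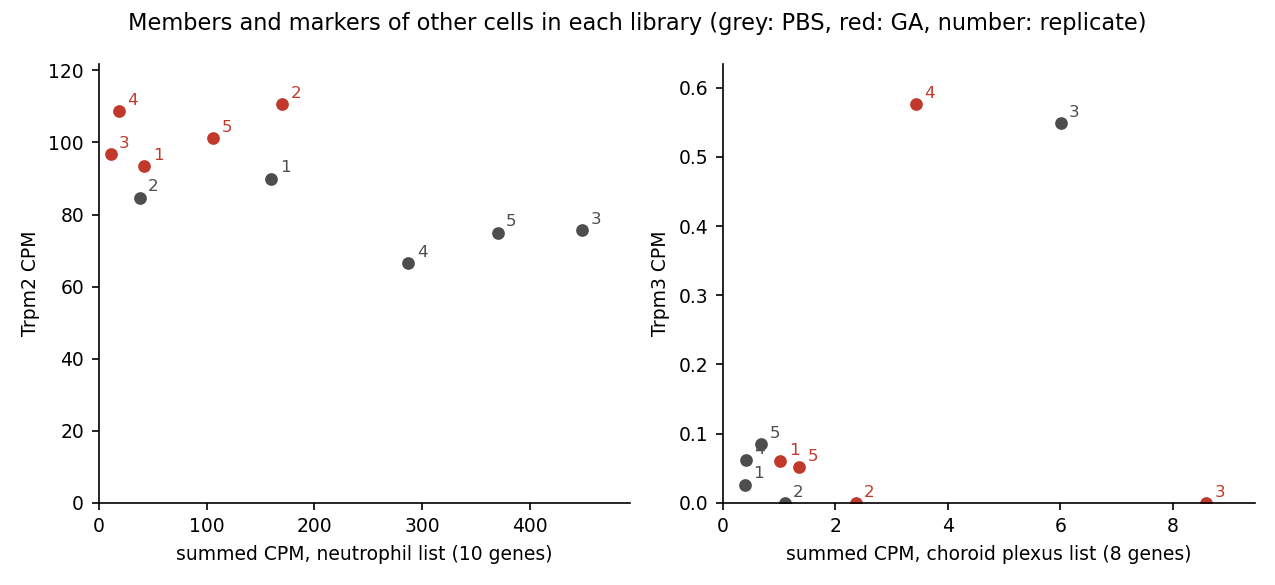
Left, *Trpm2* CPM against the summed CPM of 10 neutrophil markers. Right, *Trpm3* CPM against the summed CPM of 8 choroid plexus markers. Each point is a library (PBS grey, GA red) with its replicate number. On the left, neutrophil sums run from 38.0 to 448 CPM in PBS and from 11.0 to 170 CPM in GA. On the right, PBS replicate 3 and GA replicate 4 stand apart in *Trpm3*.

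The other melastatin channels with a tested level overlapped between the treatments. *Trpm7* (chr2:126791565-126876230, minus strand), a magnesium- and calcium-permeable channel fused to a kinase, was at 78.8, 89.6, 88.8, 94.3 and 84.5 CPM in PBS replicates 1 to 5. In GA replicates 1 to 5 it was at 73.0, 82.6, 80.2, 96.8 and 77.2 CPM. The groups overlapped, and both the lowest and the highest library were from GA. The log2 fold change was -0.09 with a standard error of 0.08 (edgeR, adjusted p = 0.935). *Trpm4* (chr7:45302632-45333780, minus strand), a calcium-activated channel that passes sodium but not calcium, was at 50.05, 50.1, 49.96, 43.0 and 49.4 CPM in PBS and 47.3, 44.8, 53.6, 47.7 and 47.9 CPM in GA. PBS replicate 4 was the lowest and GA replicate 3 the highest, and the log2 fold change was -0.0077 with a standard error of 0.08 (adjusted p = 0.994). Its sign depended on the libraries used.

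The vanilloid members also overlapped between the treatments. *Trpv2* (chr11:62574486-62600515, plus strand), a calcium-permeable channel that takes part in phagocytosis by macrophages, was at 181.9, 178.0, 157.6, 182.5 and 185.2 CPM in PBS replicates 1 to 5. In GA replicates 1 to 5 it was at 157.4, 165.0, 182.8, 181.2 and 172.1 CPM. Lower libraries near 157 CPM were present in both groups, and the log2 fold change was -0.04 with a standard error of 0.07 (edgeR, adjusted p = 0.955). *Trpv4* (chr5:114622152-114658421, minus strand), an osmosensitive and warmth-sensitive calcium channel, was at 5.91, 6.81, 3.91, 9.91 and 3.60 CPM in PBS and 6.62, 10.9, 3.38, 5.32 and 4.96 CPM in GA. Both groups spanned about the same range, and the log2 fold change was 0.05 with a standard error of 0.32 (adjusted p = 0.990). Its sign also depended on the libraries used, with -0.248 without GA replicate 2, -0.0717 and -0.0846 without PBS replicates 3 and 5, and 0.301 without PBS replicate 4. Within groups, the standard deviation of log2 CPM of *Trpv4* was 0.60, larger than that of 92.4% of 2223 genes of similar abundance, whereas that of *Trpm4* (0.10) was larger than only 10.2% of 4384 such genes.

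*Mcoln2* and *Trpm3* had reads but too few for the edgeR fit. *Mcoln2* (chr3:146149833-146195513, plus strand), an endolysosomal channel that macrophages induce on activation, had 20, 0, 0, 16 and 0 reads in PBS replicates 1 to 5 and 0, 0, 19, 10 and 6 reads in GA replicates 1 to 5. *Trpm3* (chr19:22139046-22995410, plus strand), a heat- and steroid-sensitive channel known from sensory neurons and choroid plexus epithelium, had 1, 0, 18, 2 and 3 reads in PBS and 2, 0, 0, 22 and 2 reads in GA. Reads of *Mcoln2* came from 5 of 10 libraries, and most *Trpm3* reads came from PBS replicate 3 and GA replicate 4. In DESeq2, which kept these genes, the log2 fold change was -0.08 with a standard error of 1.6 for *Mcoln2* and -0.06 with a standard error of 1.45 for *Trpm3* (adjusted p = 0.998 for each). Beside *Trpm3*, the 8 choroid plexus markers summed to 6.01 CPM in PBS replicate 3 and 3.43 CPM in GA replicate 4, the libraries with 18 and 22 *Trpm3* reads, but to 8.60 CPM in GA replicate 3, which had 0. Of these 8 markers 7 had reads, with *Ttr* at 1.22 CPM and *Enpp2* at 0.878 CPM on average, and *Kl* had 0 reads in all libraries. The part of choroid plexus RNA in the *Trpm3* reads was not tested. Exons of *Trpm3* share 277 and 351 bases with genes on the opposite strand (*Gm27151* and *C330002G04Rik*), and whether counting used strand was not given in the sources used here.

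*Trpc1*, *Trpc6* and *Trpm8* had 0 reads in all 10 libraries. *Trpc1* and *Trpc6* encode canonical channels linked to phospholipase C signaling, and *Trpm8* encodes the cold and menthol receptor of sensory neurons. A count of 0 in a total of 352950173 reads allows up to 0.0085 CPM, and up to 0.0771 to 0.0929 CPM in one library, counting error only. In the whole table, 27889 genes (50.3%) had 0 reads in all libraries.

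Among the 4 tested members other than *Trpm2*, 1 had a higher and 3 a lower fitted mean in GA, with a median log2 fold change of -0.03 against 0.0002 over all genes. None passed an adjusted p of 0.05 in edgeR (0 of 14481 genes did, 0%; smallest adjusted p over all genes 0.847) or in DESeq2 (2 of 18894 genes did, 0.0106%). None of these 4 had an unadjusted edgeR p under 0.05 (5.75% of all genes) or groups without overlap (0.891%). The log2 fold change of *Trpm2* was higher than that of 94.6% of tested genes.

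The rest of the superfamily was read from a list of 28 TRP genes, of which 11 were tested, 7 had reads but were not tested and 10 had 0 reads. *Mcoln1*, the main lysosomal calcium release channel of the mucolipin group, averaged 185 ± 22.7 CPM in PBS and 187 ± 15.4 CPM in GA (log2 fold change 0.02, edgeR adjusted p = 0.984). *Pkd2*, the polycystin of primary cilia and endoplasmic reticulum, averaged 42.5 ± 3.57 and 46.9 ± 3.55 CPM (0.14, adjusted p = 0.895). Neither passed the test. *Pkd2l2*, a polycystin relative, averaged 5.16 ± 0.520 and 5.65 ± 0.483 CPM (0.13, adjusted p = 0.945), and *Trpm1*, best known from retinal bipolar cells and melanocytes, averaged 2.44 ± 0.908 and 2.24 ± 1.16 CPM (-0.12, adjusted p = 0.978). Exons of *Pkd2l2* share 631 bases with *Fam13b* on the opposite strand. Over the 10 tested TRP genes other than *Trpm2*, 5 had a higher and 5 a lower fitted mean in GA, the median log2 fold change was 0.0049, and 0 had an unadjusted p under 0.05 (edgeR, 5.75% of all genes) or separated groups (0.891%), counts close to these shares.

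**Figure D3:**
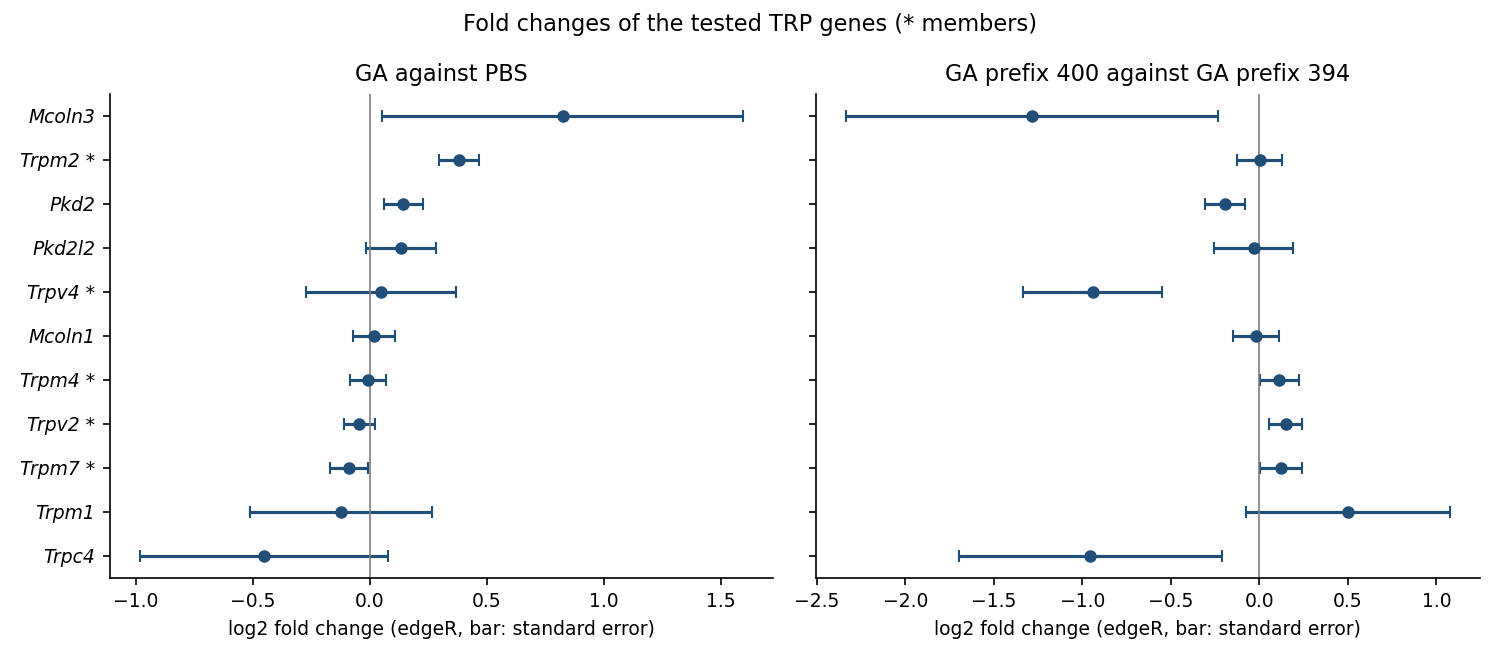
Log2 fold changes with standard errors (edgeR) of the 11 tested TRP genes, for GA against PBS on the left and for GA libraries of title prefix 400 against 394 on the right, with members marked by an asterisk. *Trpm2* is at 0.38 on the left and at 0.0024 on the right, and the widest bars belong to genes of low abundance such as *Mcoln3* and *Trpc4*.

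Between the title prefixes of the GA libraries, 5 of the 11 TRP genes were higher and 6 lower in prefix 400, with a median log2 difference of -0.02 against 0.0064 over all genes. None passed an adjusted p of 0.05 (edgeR, 0.0138% of all genes), and 1 had an unadjusted p under 0.05 (5.48% of all genes). This gene was *Trpv4*, at 6.62 and 10.9 CPM in prefix 394 and 3.38, 5.32 and 4.96 CPM in prefix 400, a log2 difference of -0.94 with a standard error of 0.39 (unadjusted p = 0.0318, adjusted p = 0.839). PBS libraries, all of a single prefix, ran from 3.60 to 9.91 CPM.

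To compare levels between genes, CPM were divided by the length of the merged exons. *Trpv2* was the most abundant member with 38.9 ± 2.39 CPM per kb (SD, n = 10 libraries), followed by *Trpm7* with 7.47 ± 0.681, *Trpm2* with 7.24 ± 1.19, *Trpm4* with 4.47 ± 0.277, *Trpv4* with 1.5 ± 0.626, *Mcoln2* with 0.0603 ± 0.0730 and *Trpm3* with 0.00577 ± 0.00918 CPM per kb. Of the 6 neighboring pairs in this order, 4 differed (exact two-sided sign-flip permutation test of the log2 ratio in 10 libraries, p = 0.00195, the smallest the test can give, adjusted p = 0.00293 for each). *Trpv2* exceeded *Trpm7* by a mean log2 ratio of 2.38 ± 0.13 and *Trpm2* exceeded *Trpm4* by 0.68 ± 0.25. *Trpm4* exceeded *Trpv4* by 1.67 ± 0.65, each of these pairs in 10 of 10 libraries. The remaining pair was *Trpv4* over *Mcoln2* (5.35 ± 2.06). In the 5 libraries with 0 *Mcoln2* reads, the size of this ratio is set by the pseudocount of 0.01. Per kb of the longest transcript, *Trpm2* and *Trpm4* no longer differed in the test (mean log2 ratio 0.13 ± 0.25, *Trpm2* higher in 7 of 10 libraries, exact permutation test, adjusted p = 0.169), so the order of this pair depends on the length used. Per kb of merged exons, *Trpm7* and *Trpm2* did not differ in the test (mean log2 ratio 0.06 ± 0.31, exact permutation test, p = 0.578). Nor did *Mcoln2* and *Trpm3* (adjusted p = 0.122, exact permutation test). For *Trpm7* and *Trpm2* the test pools groups whose difference in *Trpm2* chose the genes, so it cannot settle their order.

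The order of *Trpm7* and *Trpm2* by mean differed between the groups. This restates the contrast that chose the genes and carries no test. In PBS, *Trpm7* averaged 7.71 ± 0.518 and *Trpm2* 6.29 ± 0.733 CPM per kb. In GA, *Trpm7* averaged 7.24 ± 0.800 and *Trpm2* 8.20 ± 0.597 CPM per kb. *Trpm7* was above *Trpm2* in 4 of 10 libraries, PBS replicates 2 to 5. With the length of the longest transcript in place of merged exons, *Trpm2* (12.4 CPM per kb) stood above *Trpm7* (11.9) and *Mcoln1* (64.5) above *Trpv2* (47.5). Of the summed level per kb of all TRP genes, *Trpv2* made up 43.1% and *Mcoln1* 27.3%. *Trpm2* made up 7.01 ± 0.616% in PBS and 9.03 ± 0.476% in GA, which again uses the contrast that chose the genes. The calcium-permeable channel of phagocytosis and the lysosomal channel thus held most TRP transcripts per kb in these cells.

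**Figure D4:**
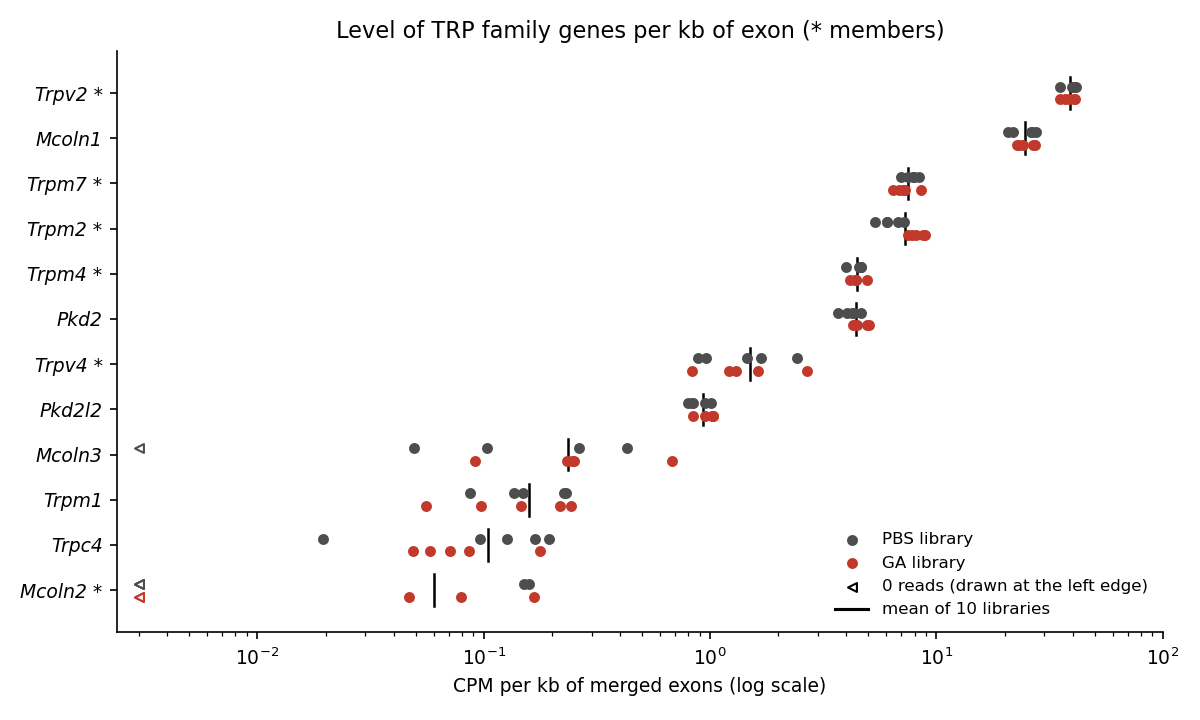
CPM per kb of merged exons (log scale) of the 12 TRP genes above 0.05 CPM per kb, in the order of their mean (black line), with a point for each PBS (grey) and GA (red) library and open triangles for libraries with 0 reads. *Trpv2* and *Mcoln1* lie above 20 CPM per kb, *Trpm7*, *Trpm2*, *Trpm4* and *Pkd2* between 3.69 and 8.88, and the *Trpm2* points of GA lie to the right of those of PBS.

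TRPM2 opens on ADP-ribose, so the enzymes that make and remove it were examined next. Of 21 genes of ADP-ribose and NAD turnover, 19 were tested, with 11 higher and 8 lower fitted means in GA and a median log2 fold change of 0.03. None passed adjustment (edgeR), and 2 had an unadjusted p under 0.05 (5.75% of all genes). *Cd38*, an ectoenzyme that converts NAD to cyclic ADP-ribose and ADP-ribose, was at 1.86, 0.956, 2.26, 4.30 and 1.87 CPM in PBS replicates 1 to 5 and at 2.64, 3.31, 3.46, 8.93 and 4.09 CPM in GA replicates 1 to 5. The groups overlapped through PBS replicate 4, and only GA replicate 4 exceeded all PBS libraries. The log2 fold change was 0.999 with a standard error of 0.40 (unadjusted p = 0.0242, adjusted p = 0.854). *Macrod2*, which removes ADP-ribose from proteins, averaged 0.958 CPM in PBS and 0.554 CPM in GA (log2 fold change -0.79, unadjusted p = 0.0432, adjusted p = 0.854).

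The other enzymes named here differed less between the group means. *Parp1*, the main polymerase of ADP-ribose chains after DNA damage and the most abundant gene of the list in CPM, averaged 178 ± 5.56 CPM in PBS and 182 ± 5.35 CPM in GA (adjusted p = 0.969, edgeR). *Parg*, which cuts these chains to free ADP-ribose, averaged 55.6 ± 7.58 and 58.4 ± 9.67 CPM (adjusted p = 0.964). *Nudt9*, a mitochondrial ADP-ribose hydrolase related to the channel's own ligand-binding domain, averaged 69.1 ± 4.57 and 75.2 ± 3.80 CPM (log2 fold change 0.12, adjusted p = 0.895). None of these genes passed the test.

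The NADPH oxidase that supplies reactive oxygen in phagocytes, with the proton channel *Hvcn1*, had 8 of 8 genes tested. Of these, 5 had a higher and 3 a lower fitted mean in GA (median 0.05), with *Rac1*, the small GTPase of the complex, at 526 ± 55.5 CPM in PBS and 556 ± 17.9 CPM in GA. All 10 genes of store-operated calcium entry were tested, with 6 higher and 4 lower (median 0.02), and *Plcg2*, the phospholipase downstream of TREM2, was at 435 ± 27.1 and 426 ± 25.8 CPM. In neither list did a gene have an unadjusted p under 0.05 (edgeR), against 5.75% of all genes, a share at which lists of this size often hold none.

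Calcium pumps, exchangers and sensors had 15 of 16 genes tested, and 13 of these had a lower fitted mean in GA and 2 a higher one, with a median log2 fold change of -0.09. Over all genes, 7250 had a higher and 7231 a lower fitted mean. No gene of this list had an unadjusted p under 0.05 (edgeR, 5.75% of all genes), and *Calm2*, a calmodulin gene, averaged 532 ± 61.2 CPM in PBS and 500 ± 13.7 CPM in GA (adjusted p = 0.920). Of 17 other ion channels of microglia, 16 were tested, with 10 higher and 6 lower (median 0.02), and *Clic1*, an intracellular chloride channel, was the most abundant in CPM (373 ± 40.6 and 363 ± 13.1 CPM). Of these 16, 2 had an unadjusted p under 0.05 (5.75% of all genes) and none passed adjustment.

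*Kcnj2*, an inward rectifier potassium channel, was at 32.2, 59.5, 75.5, 28.6 and 90.9 CPM in PBS and 75.7, 95.3, 110.0, 92.0 and 69.8 CPM in GA. PBS replicates 1 and 4 were the lowest, and the groups overlapped through PBS replicates 3 and 5. Its log2 fold change was 0.63 with a standard error of 0.26 (edgeR, unadjusted p = 0.0321, adjusted p = 0.854). *Tpcn1*, a channel of endolysosomes, averaged 50.2 CPM in PBS and 40.3 CPM in GA (log2 fold change -0.32, standard error 0.13, unadjusted p = 0.0264, adjusted p = 0.854).

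**Figure D5:**
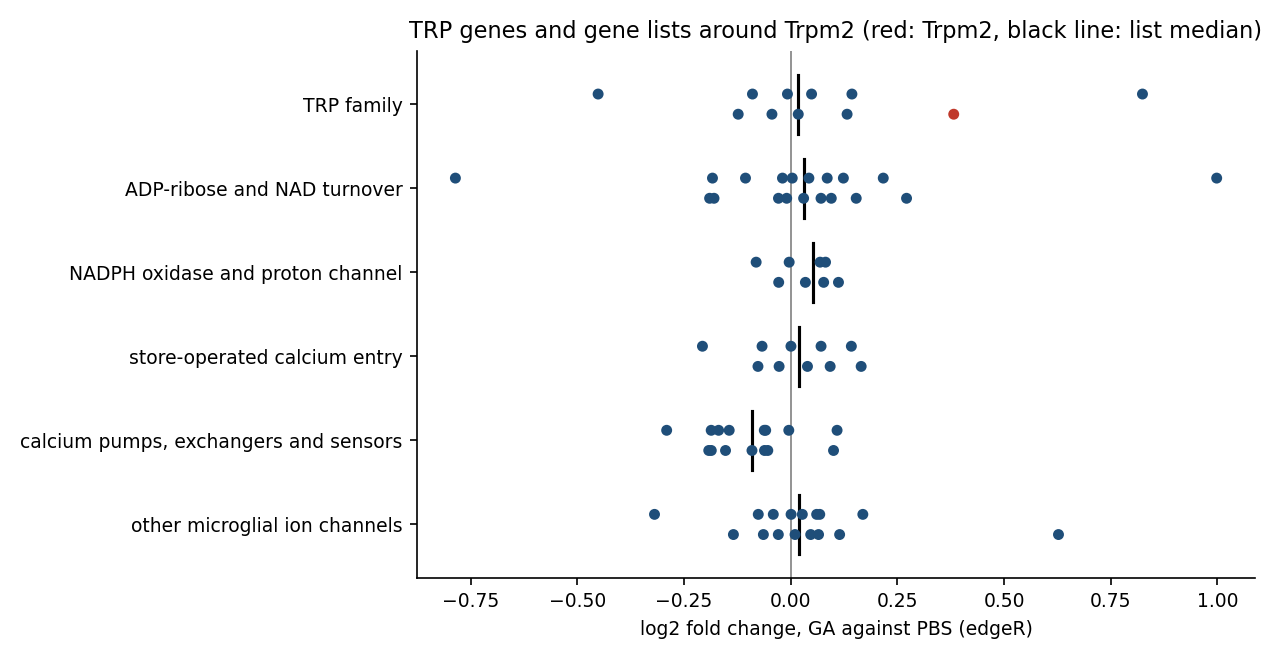
Log2 fold changes of GA against PBS (edgeR) of each tested gene in the TRP family and in 5 lists of genes that supply or share the work of TRPM2, with the median of each list as a black line and *Trpm2* in red. List medians run from -0.09 for calcium pumps, exchangers and sensors to 0.05 for the NADPH oxidase.

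Genes whose level followed that of *Trpm2* from library to library were sought among 8687 genes of at least 10 CPM, after the mean of each treatment group was subtracted, so that the difference between treatments did not enter. The highest Pearson correlations over the 10 libraries were those of *Suds3* (r = 0.935, Spearman rho = 0.952), *Evi5l* (r = 0.925, rho = 0.867), *Mbtps2* (r = 0.924, rho = 0.855), *Stard9* (r = 0.912, rho = 0.915) and *Trim27* (r = 0.904, rho = 0.879). The most negative were those of *Prdx6* (r = -0.952, rho = -0.891), *Ccl6* (r = -0.951, rho = -0.952) and *Elovl1* (r = -0.940, rho = -0.879). *Suds3* belongs to the Sin3 corepressor complex, *Prdx6* is a peroxiredoxin and *Ccl6* a chemokine of myeloid cells. Without the PBS replicates 1 and 4, in which *Trpm2* lay farthest from its group mean, r was 0.926 for *Suds3*, 0.798 for *Trim27*, -0.918 for *Prdx6* and -0.923 for *Ccl6*. Without subtraction of the group means, r turned to -0.259 for *Mbtps2* and kept its sign for the other 7 genes. The libraries share depth, sort and composition, 12 of the 8687 genes (0.138%) passed an absolute r of 0.9, and these values are a description.

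The other TRP genes of this abundance were less like *Trpm2*. The correlation was 0.661 for *Mcoln1*, 0.276 for *Trpm4*, 0.261 for *Pkd2*, 0.112 for *Trpv2* and -0.017 for *Trpm7*, against a median of -0.015 over all genes. *Mcoln1* was higher than 95.6% of genes in this measure and *Trpm7* higher than 49.8%.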

How the data were processed

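The authors deposited raw counts of reads per gene for 10 libraries (SMARTer cDNA, Nextera XT, single-end reads). The submitters' processing notes name bcl2fastq 2.19.0, fastp 0.20.0, STAR 2.7.0f, Subread 1.6.4 with featureCounts, DESeq2 and GRCm38.p6; strandedness was not given in the sources used here. All count columns were matched to a sample by title, and 28 of 28 TRP symbols were found in GENCODE M21.

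Counts were filtered with filterByExpr (minimum count 10), scaled by TMM factors and compared by the quasi-likelihood F-test of edgeR (version 4.0.16, R 4.3.3) with Benjamini-Hochberg adjustment over 14481 genes and a threshold of 0.05. The contrast of title prefixes came from a fit with a mean per prefix. DESeq2 1.42.0 and limma 3.58.1 (voom), DESeq2's size factors, other filters, a replicate block, each library left out and GA prefixes alone were alternatives. CPM are TMM-normalized. Levels per kb used a pseudocount of 0.01 in log2 ratios. All scripts were checked on simulated data. Reads were amplified and carry no molecular identifiers, so counting limits cover counting error only. Python 3.11.15 and numpy 2.4.6 were used for summaries.

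The members and gene lists were chosen with earlier results of these data known. Named genes were all members, other TRP genes of at least 1 mean CPM, in each list the gene of highest CPM and those with an unadjusted p under 0.05 (at most 4), *Cd38*, *Parp1*, *Parg* and *Nudt9*, the genes of the sort, and the 5 most and 3 least correlated with *Trpm2*. Promoter sequence is from RefSeq (GRCm38.p6). Exons of *Trpm2* share 44 and 47 bases with the small nucleolar RNA genes *Gm22394* and *Gm22871* on the same strand, and those of *Trpm8* share 388 with an antisense gene.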

Additional observations from a re-analysis of the deposited data

Results flagged for a closer look

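Each group of 5 libraries was searched for a lowest or highest library that lay far from the others relative to the range of the group (Dixon's 95% criterion), for the 11 tested TRP genes, *Mcoln2*, *Trpm3*, the sums of 9 marker lists and the 3 genes of the sort. Of 50 groups checked, 9 held such a library. The criterion's rate of about 1 in 20 holds for independent, normally distributed values. These groups share libraries and include counts near 0, so the 9 cannot be set against that rate. *Trpv2* was at 158 CPM in PBS replicate 3, where the other PBS libraries were at 178 to 185 CPM. *Trpm4* was at 43.0 CPM in PBS replicate 4, where the other PBS libraries were at 49.4 to 50.1 CPM. *Itgam* was at 88.6 CPM in PBS replicate 4, where the other PBS libraries were at 191 to 232 CPM, and this library also held the lowest *Trpm2* value (66.5 CPM). *Trpm3* was at 0.549 CPM in PBS replicate 3 (others up to 0.0850 CPM) and at 0.576 CPM in GA replicate 4 (others up to 0.0599 CPM). Choroid plexus markers summed to 6.01 CPM in PBS replicate 3, where the other PBS libraries were at 0.392 to 1.1 CPM. GA replicate 2 was the highest GA library in *Trpc4* (1.43 CPM, others 0.393 to 0.693 CPM) and in *Mcoln3* (2.36 CPM, others 0.318 to 0.868 CPM). *Ptprc*, which encodes CD45, was at 591 CPM in GA replicate 2, where the other GA libraries were at 535 to 540 CPM. The causes were not tested.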

How the results depend on the processing

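Under all 18 alternatives, 0 TRP genes other than *Trpm2* and 0 genes of the 5 lists passed an adjusted p of 0.05, while in all but 2 of them no gene of the whole table passed (2 genes in DESeq2, 1 without GA replicate 1). The log2 fold change of *Trpm2* ran from 0.277, with the replicate block by title number, to 0.437, and from 0.329 to 0.437 when a library was left out. Title numbers restart within a prefix and name no animal, so the block pairs no animals. *Trpm7* kept a negative sign (-0.159 to -0.0361). *Trpm4*, with a log2 fold change near 0, turned positive without a filter (0.00166) and with prefix 400 alone (0.0411), and ran from -0.0478 to 0.0185 when a library was left out. With prefix 400 alone, *Trpv2* was at 0.0188 and *Trpv4* at -0.396, and with prefix 394 alone they were at -0.129 and 0.546. When a library was left out, *Trpv2* ran from -0.0828 to -0.0136, and *Trpv4* ran from -0.248, without GA replicate 2, to 0.301. None of these differences passed the test in any setting, and the causes were not tested. Of the neighboring pairs by level per kb, 0 passed in PBS alone and 0 in GA alone, where 5 libraries allow no p below 0.0625, 3 passed with the longest transcript (not *Trpm2* over *Trpm4*) and 4 in the other alternatives. Of the 5 genes most correlated with *Trpm2*, 1 remained among the first 5 without subtraction of group means, and 1 to 4 did when a library was left out, so this order rests on single libraries.

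With 5 libraries a group, the standard error of the log2 fold change was 0.07 to 0.09 for *Trpm2*, *Trpm4*, *Trpm7* and *Trpv2* and 0.32 for *Trpv4*, so small differences of *Trpv4* could not be seen.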
